A study of Mus musculus with 6 samples.

Results

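Lhb, Fshb, Tshb, Cga, Gnrhr and Trhr were followed across the cells of the mouse pituitary. They are the 4 subunit genes of the glycoprotein hormones made there and the 2 receptor genes through which the hypothalamus drives those hormones. The 6 genes were chosen by their symbols in the gene tables, out of 27998 genes, and each symbol matched 1 row. C57BL/6 mice aged 10 weeks gave single cells of 3 organs of the stress axis: the adrenal, the pituitary and the hypothalamic paraventricular nucleus (PVN). Controls were unstressed, and stress mice underwent chronic social defeat, repeated exposure to an aggressive mouse, over 21 days. Each tissue gave 1 control and 1 stress library, each from the pooled tissue of 5 mice, so the pituitary data were 2 libraries without replicates. No test between conditions was therefore possible. Every interval below is a 95% interval of counting error in these pools, not of the spread between mice or between cells.

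Luteinising hormone, follicle-stimulating hormone and thyrotropin are pairs of an alpha subunit, encoded by Cga and shared by all of them, and a beta subunit, encoded by Lhb, Fshb or Tshb, that gives each hormone its identity. Gonadotropes make the gonadotropins when gonadotropin-releasing hormone from the hypothalamus acts on Gnrhr, and thyrotropes make thyrotropin when thyrotropin-releasing hormone acts on Trhr. Sex steroids and inhibin feed back on gonadotropes, and thyroid hormone feeds back on thyrotropes.

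On GRCm38 with GENCODE vM21, Lhb (ENSMUSG00000100916) is on chromosome 7, 45420820 to 45421897, plus strand, and its 3′ end overlaps Ruvbl2 on the other strand. Fshb (ENSMUSG00000027120) is on chromosome 2, 107056140 to 107059656, minus strand. Tshb (ENSMUSG00000027857) is on chromosome 3, 102775465 to 102782718, minus strand, inside the bounds of Tspan2 on the other strand. Cga (ENSMUSG00000028298) is on chromosome 4, 34893779 to 34907370, plus strand, and overlaps the non-coding gene Platr9 on the other strand. Gnrhr (ENSMUSG00000029255) is on chromosome 5, 86180754 to 86197901, minus strand, and Trhr (ENSMUSG00000038760) is on chromosome 15, 44196135 to 44235912, plus strand. The sources do not say if strand was used in counting.

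The promoters of the 4 subunit genes are shown because their transcripts define the cells described below. Each sequence is the 250 bases before the RefSeq start (GRCm38.p6), written 5′ to 3′ on the gene's strand, and capitals mark matches to 7 short motifs searched on both strands.
Lhb, chr7:45420696-45420945, plus strand: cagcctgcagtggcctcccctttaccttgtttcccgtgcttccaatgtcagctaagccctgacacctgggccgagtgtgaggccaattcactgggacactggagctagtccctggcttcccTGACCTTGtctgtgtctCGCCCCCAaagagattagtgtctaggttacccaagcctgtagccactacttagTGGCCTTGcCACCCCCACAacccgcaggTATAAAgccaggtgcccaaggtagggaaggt
Fshb, chr2:107059652-107059901, minus strand: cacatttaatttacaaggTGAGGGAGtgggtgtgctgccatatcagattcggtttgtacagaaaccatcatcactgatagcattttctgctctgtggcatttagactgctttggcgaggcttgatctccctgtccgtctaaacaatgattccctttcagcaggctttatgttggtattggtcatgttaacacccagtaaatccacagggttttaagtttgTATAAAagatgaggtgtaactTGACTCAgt
Cga, chr4:34893529-34893778, plus strand: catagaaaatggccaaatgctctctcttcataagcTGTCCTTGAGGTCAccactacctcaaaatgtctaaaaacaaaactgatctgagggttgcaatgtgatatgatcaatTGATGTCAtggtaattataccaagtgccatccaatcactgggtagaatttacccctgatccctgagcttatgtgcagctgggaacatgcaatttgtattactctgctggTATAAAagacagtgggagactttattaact
Tshb, chr3:102782715-102782964, minus strand: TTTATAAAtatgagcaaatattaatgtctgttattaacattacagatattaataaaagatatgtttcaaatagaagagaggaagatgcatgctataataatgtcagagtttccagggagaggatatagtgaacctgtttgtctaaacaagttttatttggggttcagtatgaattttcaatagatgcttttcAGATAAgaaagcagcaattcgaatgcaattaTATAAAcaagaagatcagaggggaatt
The motifs were an Nr5a1 site (CAAGGNCA), an Egr1-type site (CNCCCNCA), a CRE-like site (TGANGTCA), and a Pitx1, a Gata, an AP-1 and a TATA box motif, spelled out where they are described. The Lhb window held 2 Nr5a1 sites, beginning 129 and 59 bases before the start. It also held 3 Egr1-type matches beginning at 112, 50 and 48, of which the last 2 overlap, and a TATA box (TATAAA) at 31. In all RefSeq promoter windows of the same length, 5.53% held an Nr5a1 site and 26.2% an Egr1-type site. Cga had an Nr5a1 site at 215 that overlaps a CRE-like match at 209, a further CRE-like match at 139 and a TATA box at 30. A CRE-like match was found in 7.49% of all windows. Fshb had an Egr1-type match at 232, a TATA box at 30 and 1 AP-1 match (TGANTCA) at 9, a motif that reads the same on both strands and was found in 6.75% of all windows. Tshb had a Gata match (AGATAA) at 58, as did 9.99% of all windows, TATA matches at 250 and 248 that overlap on opposite strands, and a TATA box at 27. The Gnrhr window, not printed, held only a TATA match at 121. All 5 windows had a TATA match, against 12.4% of all windows, and none had the Pitx1 letters (TAATCC), found in 6.25%. The RefSeq start of Lhb lies 126 bases downstream of the GENCODE start, so that part of its window is inside the GENCODE gene. A match is a string of letters and not evidence of binding.

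The 2 pituitary libraries held 50024887 and 53244403 unique molecular identifiers (UMIs, 1 per captured transcript) in 5202 control and 5103 stress barcodes, with medians of 9571 and 9926 per barcode. After filters, 4944 and 4880 cells were kept and clustered jointly, with the 6 genes left out of the genes clustered on. The 2 libraries shared 39 barcode sequences. Cell classes were named from markers other than the 6 genes, so the levels given here were not used directly to form or name the classes. They stayed in the UMI total of each cell, to which the other genes were scaled before clustering. Subunit UMIs were 21.7% of that total in control and 19.7% in stress gonadotrope-like cells. Gonadotrope-like cells were 2 clusters (7 and 16) that passed for Nr5a1, Tgfbr3l, Foxp2 and Spp1, although the marker Foxl2 had 0 and 1 UMIs in them. They numbered 234 of 4944 control cells (4.73%, 4.16 to 5.36) and 199 of 4880 stress cells (4.08%, 3.54 to 4.67), and these exact intervals overlap. Thyrotrope-like cells were 1 cluster that passed for Dio2, Rxrg and Gata2 but not Sox14, with 108 control cells (2.18%, 1.80 to 2.63) and 106 stress cells (2.17%, 1.78 to 2.62).

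The beta subunits were found in the class where each is known to be made, and Cga in both. Levels are CPM, that is UMIs scaled to the UMI total of the class. They were not divided by gene length, so they are compared between cells and libraries and not between genes. Lhb stood at 50432 in control and 33523 in stress gonadotrope-like cells, and no other class exceeded 865. The next class for Lhb was melanotrope-like in control, and the remaining classes followed without clear steps, since most neighbours in that order overlapped. Fshb stood at 6675 and 7720 in gonadotrope-like cells and between 30.2 and 162 in the 13 classes outside the gonadotrope-like and thyrotrope-like ones. Tshb stood at 24849 and 40939 in thyrotrope-like cells and between 87.5 and 273 in those 13 classes. Cga stood at 159929 and 155669 in gonadotrope-like cells, at 57921 and 117401 in thyrotrope-like cells, and between 1100 and 4101 elsewhere. Each subunit was thus separated from every other class by its intervals in the plot of levels by class.

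**Figure D1:**
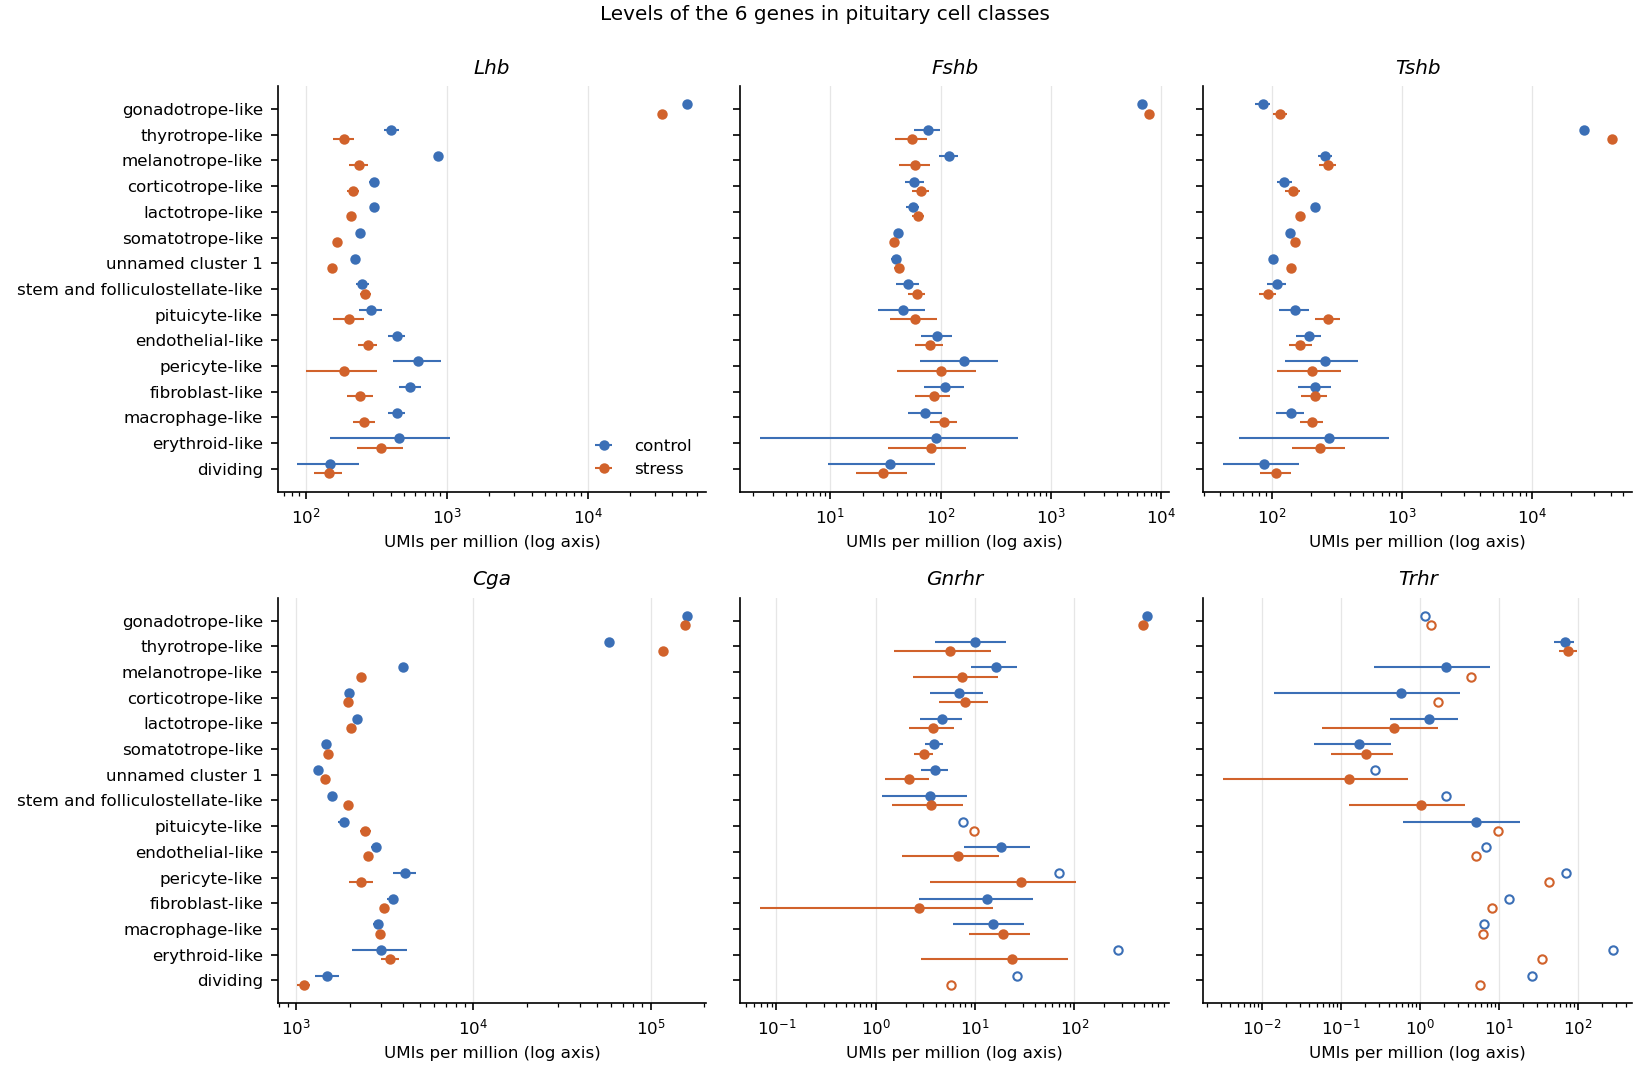
CPM (log axis) of each gene in 15 pituitary cell classes, control in blue and stress in orange, with exact 95% Poisson intervals; open circles mark classes with no UMI, drawn at the level of 3 UMIs. Lhb, Fshb and Gnrhr stand out in gonadotrope-like cells, Tshb and Trhr in thyrotrope-like cells, and Cga in both.

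The receptors followed the same division. Gnrhr, the receptor for gonadotropin-releasing hormone, stood at 543 (515 to 572) in control and 492 (463 to 523) in stress gonadotrope-like cells. In the non-endocrine classes together it stood at 7.68 and 6.55. Trhr, the receptor for thyrotropin-releasing hormone, had 48 UMIs (67.8 CPM) in control and 54 UMIs (75.5 CPM) in stress thyrotrope-like cells. Gonadotrope-like cells had no Trhr UMI in either library, which allows a level of up to 1.15 and 1.39 CPM. Of all Trhr UMIs in the pituitary, 77.4% in control and 83.1% in stress lay in the thyrotrope-like class, and of all Gnrhr UMIs 87.1% and 86.3% lay in the gonadotrope-like class. Trhr was sparse: in cells thinned to 2000 UMIs, 12.0% of control and 19.8% of stress thyrotrope-like cells had a Trhr UMI, with overlapping intervals (6.57 to 19.7 and 12.7 to 28.7).

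Transcripts free in the suspension reach every droplet, and the low levels elsewhere are read against them. In non-endocrine classes together (endothelial-like, macrophage-like and the like), Cga stood at 2192 and 2371, Lhb at 343 and 258, Fshb at 65.7 and 73.1 and Tshb at 142 and 149. Lhb per 100 Cga UMIs lay between 13.8 and 16.5 in control corticotrope-like, lactotrope-like, somatotrope-like, endothelial-like, macrophage-like and stem-like cells. It was 21.7 in control melanotrope-like cells and 9.94 in the 9 dividing cells. The same ratio in control gonadotrope-like cells was 31.5. Gonadotrope-like cells had Tshb at 85.7 and 116, below the non-endocrine classes, and thyrotrope-like cells had Lhb at 405 and 186, near them. The 13 classes outside both ran from 87.5 to 273 for Tshb, so the control gonadotrope-like value lay just below that range, and from 145 to 865 for Lhb.

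Lhb was the subunit that differed most between the libraries in gonadotrope-like cells. It stood at 50432 CPM in control and 33523 in stress, a log2 ratio of stress over control of -0.59 (-0.60 to -0.58), or 1.50-fold lower. Fshb was 1.16-fold higher (log2 0.21, 0.18 to 0.24), and Cga was nearly level (log2 -0.039, -0.046 to -0.032). Gnrhr had a log2 ratio of -0.14 (-0.26 to -0.03). Lhb UMIs per Fshb UMI were 7.56 in control and 4.34 in stress, and Lhb UMIs per 100 Cga UMIs were 31.5 and 21.5. Of the 5 members with at least 50 UMIs in the class (Tshb among them, at the level of free RNA), 1, Lhb, had a log2 ratio of 0.58 or more in size. Of the 7684 genes with that many UMIs 7.27% passed this size in either direction and 4.8% were lower in stress. Lhb was lower outside the class as well: in cells outside both classes it stood at 265 in control and 178 in stress, a log2 ratio of -0.58 (-0.62 to -0.54), and in the non-endocrine classes together the log2 ratio was -0.41 (-0.54 to -0.28). The first of these includes some Lhb-positive cells, described below. The level in gonadotrope-like cells was 147-fold and 130-fold that of the non-endocrine classes. With the log2 ratio of all other pituitary cells subtracted, Lhb was left at -0.0017 (-0.015 to 0.011) and Fshb at 0.25. How the class and the transcripts found elsewhere bear on each other was not tested. Somatotrope markers were also higher in the stress class: all 5 had a UMI in both libraries, summing to 25917 and 35399 CPM, with a median cell at 19263 and 25164. The corticotrope list summed to 5428 and 8774, with Crhr1 at 0 in control, but its median cell was at 2027 and 2060, and single cells reached 250240 and 344067. The part of these markers in the ratios was not tested.

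Both gonadotrope-like clusters showed the lower Lhb. In cluster 7, with 196 and 185 cells, Lhb had a log2 ratio of -0.51 (-0.52 to -0.49), Fshb of 0.34 (0.31 to 0.37) and Cga of 0.08 (0.07 to 0.08). In cluster 16, with 38 and 14 cells, Lhb had a log2 ratio of -0.71 (-0.75 to -0.66), Fshb of -0.14 (-0.24 to -0.04) and Cga of 0.00 (-0.02 to 0.02). Fshb thus had opposite signs in the 2 clusters. Among cells positive for both Lhb and Fshb, Lhb stood at 56358 in the 190 control cells and at 38933 in the 155 stress cells, a log2 ratio of -0.53 (-0.55 to -0.52). Their Fshb ratio was 0.25 (0.21 to 0.28) and their Gnrhr ratio -0.07 (-0.20 to 0.05). Since these cells were picked by their Lhb and Fshb, those 2 ratios are descriptions and follow in part from that choice. The sign of the small Cga difference changed with the cells counted.

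**Figure D2:**
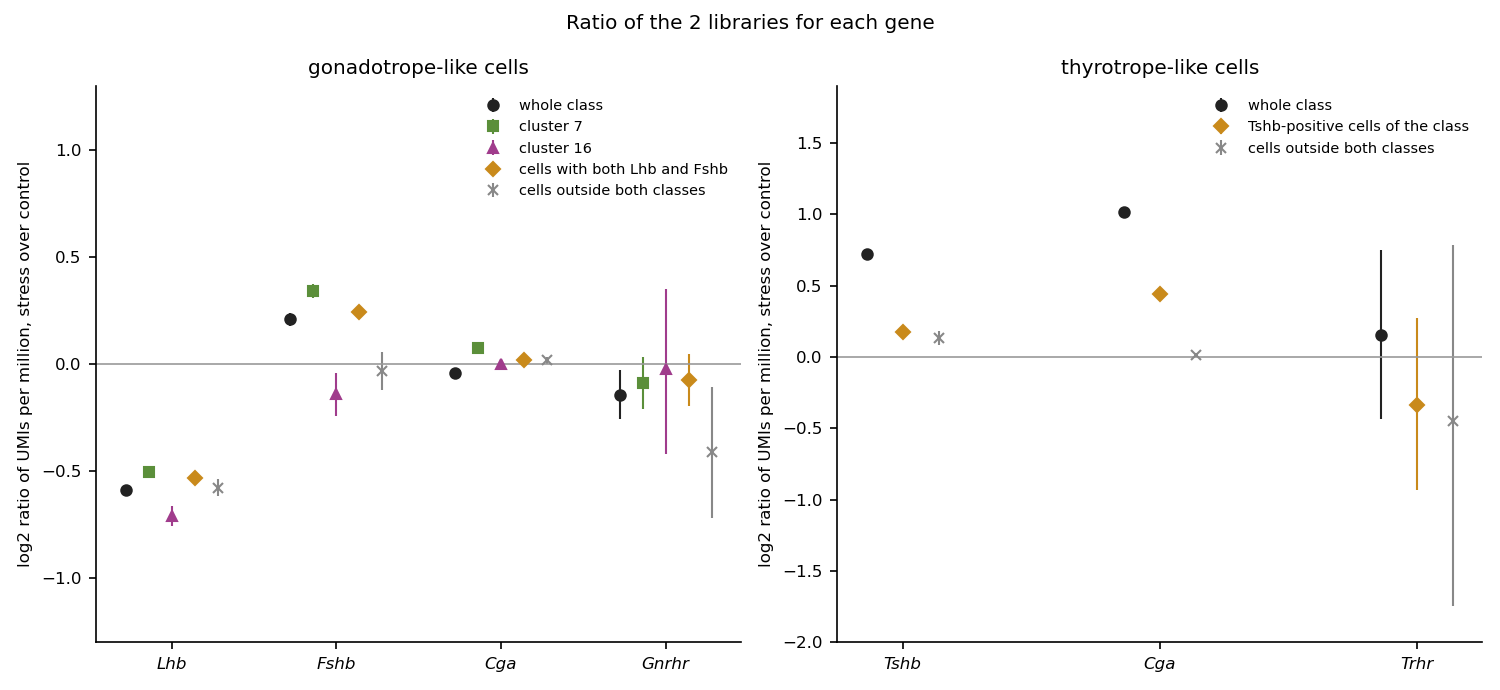
Log2 ratio of stress over control for each gene, with 95% intervals of counting error, in the whole class and in parts of it; grey crosses are the cells outside both classes. Lhb lies at -0.71 to -0.51 in the class and its parts, and the thyrotrope-like ratios of Tshb and Cga come closer to 0 when only Tshb-positive cells are counted.

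Cluster 16 held the gonadotrope-like cells most loaded with subunit transcripts. Subunit UMIs were 40.1% of all UMIs in its control cells and 36.9% in its stress cells, against 19.4% and 18.9% in cluster 7. This load was also part of the totals used in clustering, and its part in forming cluster 16 was not tested. Its cells had a median of 1565 genes in control and 1576 in stress, against 3305 and 3083, and a median mitochondrial share of 14.8% and 18.4%, against 7.01% and 6.65%. Transcripts of the secretory granule were also more abundant in it: Chga, which encodes chromogranin A, stood at 9326 and 9555 CPM, against 2865 and 2757 in cluster 7. Scg2, encoding secretogranin II, stood at 23114 and 30249, against 6898 and 8740. Nr5a1, encoding the transcription factor SF-1, stood at 43.7 and 53.2 (13 and 5 UMIs), against 126 and 78.1. With subunit UMIs left out of the totals, Nr5a1 stood at 72.9 and 84.3, against 157 and 96.3. Cluster 16 was 38 of the 234 control cells of the class and 14 of the 199 stress cells, and without it the Fshb log2 ratio was 0.34 in place of 0.21.

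Most gonadotrope-like cells carried both gonadotropin beta subunits. Cells were thinned to 2000 UMIs and called positive for Lhb, Fshb or Tshb at 5 UMIs or more and for Cga at 20 or more, which was above the 99th percentile of non-endocrine cells of each library. Among gonadotrope-like cells, 190 of 234 in control (81.2%, 75.6 to 86.0) and 155 of 199 in stress (77.9%, 71.5 to 83.5) were positive for both. By these thresholds, cells positive for Lhb alone numbered 20 and 13, for Fshb alone 2 and 1, and for neither 22 and 30. Fshb alone was thus rare in both libraries. The control cells with Lhb alone had Lhb at 27755 CPM and Fshb at 1545. The lower Fshb is what defines these cells, and their Lhb stood below the 56358 of cells with both. They did not lack Fshb, which stood at 65.7 in the control non-endocrine classes together. In stress, Fshb stood at 1025 in cells with Lhb alone, against 73.1 in the non-endocrine classes. The 2 control cells with Fshb alone had Lhb at 1928, against 343 in the non-endocrine classes.

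Thinned to 2000 UMIs, a control gonadotrope-like cell had a median of 98.5 Lhb UMIs (lowest 0, highest 320) and a stress cell a median of 58 (lowest 0, highest 158). For Fshb the medians were 12 (0 to 47) and 15 (0 to 44), and for Cga 310.5 (1 to 906) and 311 (1 to 879). The Lhb ranges overlapped widely. The highest control values were in cluster 16, and in cluster 7 alone the medians were 92.5 and 57 and the highest values 209 and 158. Across the cells of the class, Lhb and Fshb had a Spearman rho of 0.59 over 234 control cells and 0.67 over 199 stress cells, which is a description of cells that share a library and a depth. In the cells positive for neither beta subunit, Pomc stood at 51039 and 64256 CPM over all cells together. Pomc is the precursor gene of the corticotropin and melanotropin peptides. Of 2000 UMIs the median cell had 9.5 and 7 for Pomc, and the highest had 498 and 682. The 99th percentile of non-endocrine cells set the Pomc threshold at 129 UMIs in control and 27 in stress. At these unlike thresholds 4 of 22 control and 10 of 30 stress cells were positive, so the counts are not compared between libraries. Nr5a1 had 10 UMIs in the 22 control cells and 4 in the 30 stress cells. The ratios over cells with both beta subunits, given above, leave them out.

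**Figure D3:**
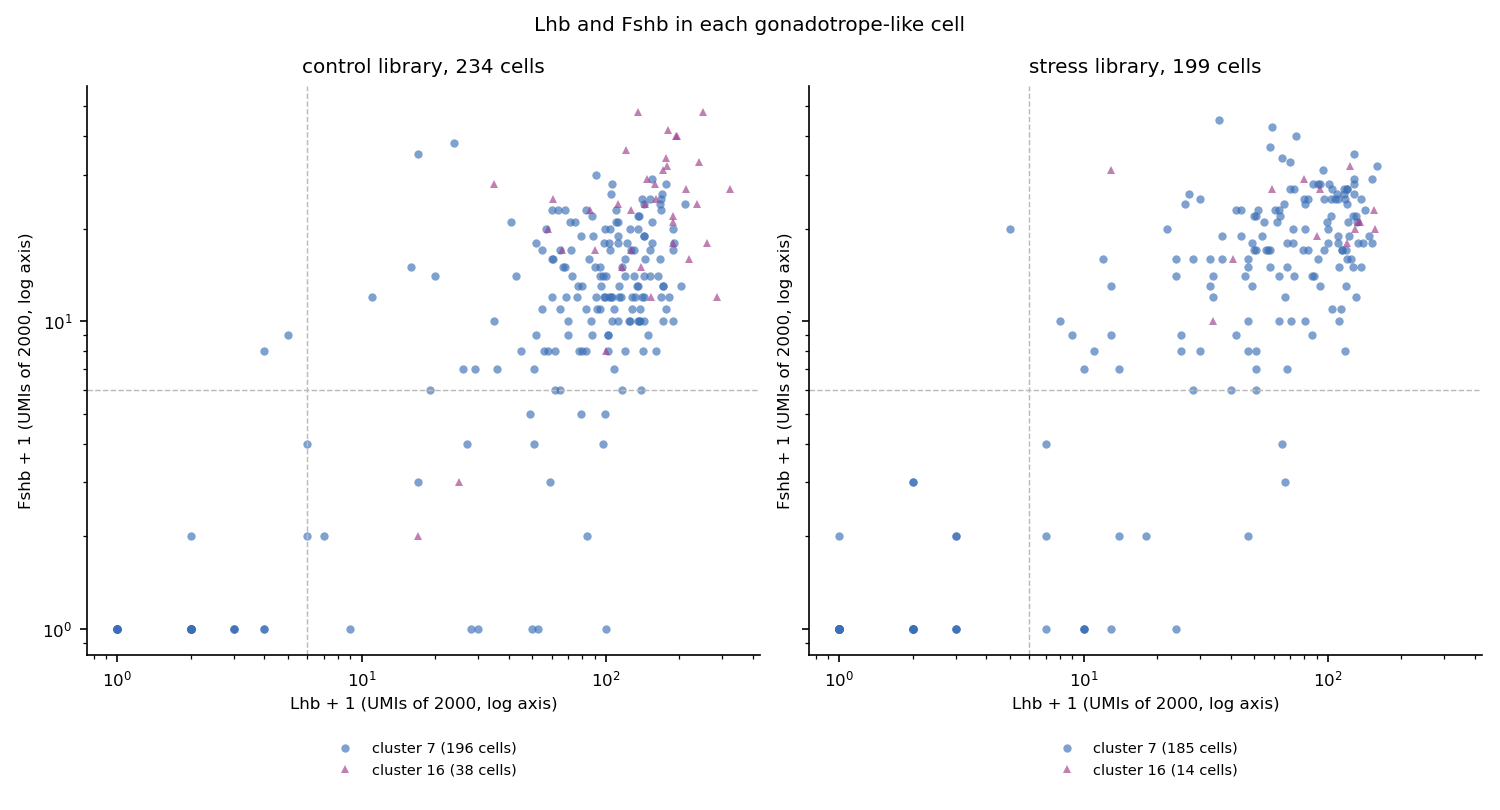
Lhb and Fshb in each gonadotrope-like cell after thinning to 2000 UMIs, with 1 added and both axes logarithmic; dashed lines mark 5 UMIs. Of 234 control cells 190 lie in the upper right, as do 155 of 199 stress cells, and the highest Lhb values are 320 in control and 158 in stress.

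Gonadotropin-positive cells were also seen outside the class. Of all cells positive for Lhb or Fshb, 191 of 262 in control (72.9%, 67.1 to 78.2) and 156 of 180 in stress (86.7%, 80.8 to 91.3) had both. The lower control share came with 49 control cells and 11 stress cells positive for Lhb outside both classes. These 49 had a median of 3086 UMIs, against 11897 in the positive cells inside, and a median of only 8 Lhb UMIs of 2000, against 104. Of the 49, 22 were melanotrope-like. The 11 stress cells had a median of 6194 UMIs and of 6 Lhb UMIs of 2000. The part of free RNA in the cells outside was not tested. At a threshold of 10 UMIs the shares were 65.6% in control and 80.9% in stress. With doublets kept they were 85.5% and 84.7%, so that the control share was no longer lower, and at 2 UMIs they were 26.4% (23.5 to 29.4) and 30.6% (26.8 to 34.7), with overlapping intervals. No gonadotrope-like cell was positive for Tshb: 0 of 234 and 0 of 199, which allows up to 1.28% and 1.51%. In the whole pituitary, 2 control cells and 1 stress cell were positive for Tshb and a gonadotropin.

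The thyrotropin subunits stood higher in the stress library when the whole thyrotrope-like class was counted. Tshb was 24849 in control and 40939 in stress, a log2 ratio of 0.72 (0.69 to 0.75), and Cga was 57921 and 117401, a log2 ratio of 1.02 (1.00 to 1.04). The Trhr log2 ratio was 0.15 (-0.43 to 0.75) in the class, an interval that includes 0, and -0.69 (-1.28 to -0.10) over Tshb-positive cells of any cluster, so its sign depends on the cells counted. Of the 5 members with at least 50 UMIs in this class, Cga alone was higher by 2-fold or more, as were 0.67% of 3432 genes, and Tshb and Cga were higher by a log2 ratio of 0.58 or more, as were 4.22%. Lhb, at the level of free RNA in this class, had a log2 ratio of -1.12 (-1.43 to -0.82).

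The 2 libraries held different mixtures of cells in this class. Tshb-positive cells were 50 of 108 in control (46.3%, 36.7 to 56.2) and 71 of 106 in stress (67.0%, 57.2 to 75.8). Among these cells alone, Tshb stood at 56301 and 63482, a log2 ratio of 0.17 (0.15 to 0.20), and Cga at 119028 and 162007, a log2 ratio of 0.44 (0.43 to 0.46). Trhr stood at 145 and 115 in them (log2 -0.33, -0.93 to 0.28), and Dio2, the deiodinase that activates thyroid hormone, at 367 and 441 (log2 0.26, -0.07 to 0.61). Since these cells were picked by their Tshb, the smaller Tshb ratio among them is a description and follows in part from that choice. The cells negative for both Tshb and Cga, 44 in control and 24 in stress, had Gh, encoding growth hormone, at 175512 and 169682, against 72548 and 47454 in Tshb-positive cells. They had no Trhr UMI, Dio2 at 23.2 and 11.8, and Ghrhr, the receptor for growth-hormone-releasing hormone, at 72.8 and 58.9. They were thus grouped with the class while below the thresholds for its hormone. The somatotrope marker list, with all 5 markers present in both libraries, summed to 137502 CPM in the control class and 81559 in the stress class. The median cell of that list was at 71261 and 54864. The lactotrope list summed to 16598 and 10487, with Drd2 at 0 in both, but its median cell was at 5875 and 5842, and single cells reached 412287 and 346444. Beyond the values in Tshb-positive cells, the part of such cells in the class ratios was not tested.

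Another set of cells in the class was positive for Cga and below the threshold for Tshb. They numbered 14 in control and 11 in stress, with Cga at 34369 and 106150 CPM and Tshb at 596 and 456. Tshb stood at 142 and 149 in the non-endocrine classes together, so these cells did not lack it. Chga stood at 10020 and 8651 in them, against 1789 and 1249 in Tshb-positive cells. Ces1d stood at 1056 and 210, and Apoc3, encoding an apolipoprotein, at 136 and 514, while Apoc3 had no UMI in Tshb-positive cells. Gh differed between the libraries in this set, at 179868 and 34417. These sets were read off the cells after the data were seen and are descriptions. The opposite case, positive for Tshb and below the threshold for Cga, was found in 6 of the 50 Tshb-positive control cells (12%) and in 1 of the 71 stress cells (1.41%). In 5 of the 6 control cells Tshb ran from 66 to 352 UMIs of 2000 while Cga ran from 1 to 17, the level of cells with free RNA only. The remaining control cell and the stress cell had 5 Tshb UMIs each.

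**Figure D4:**
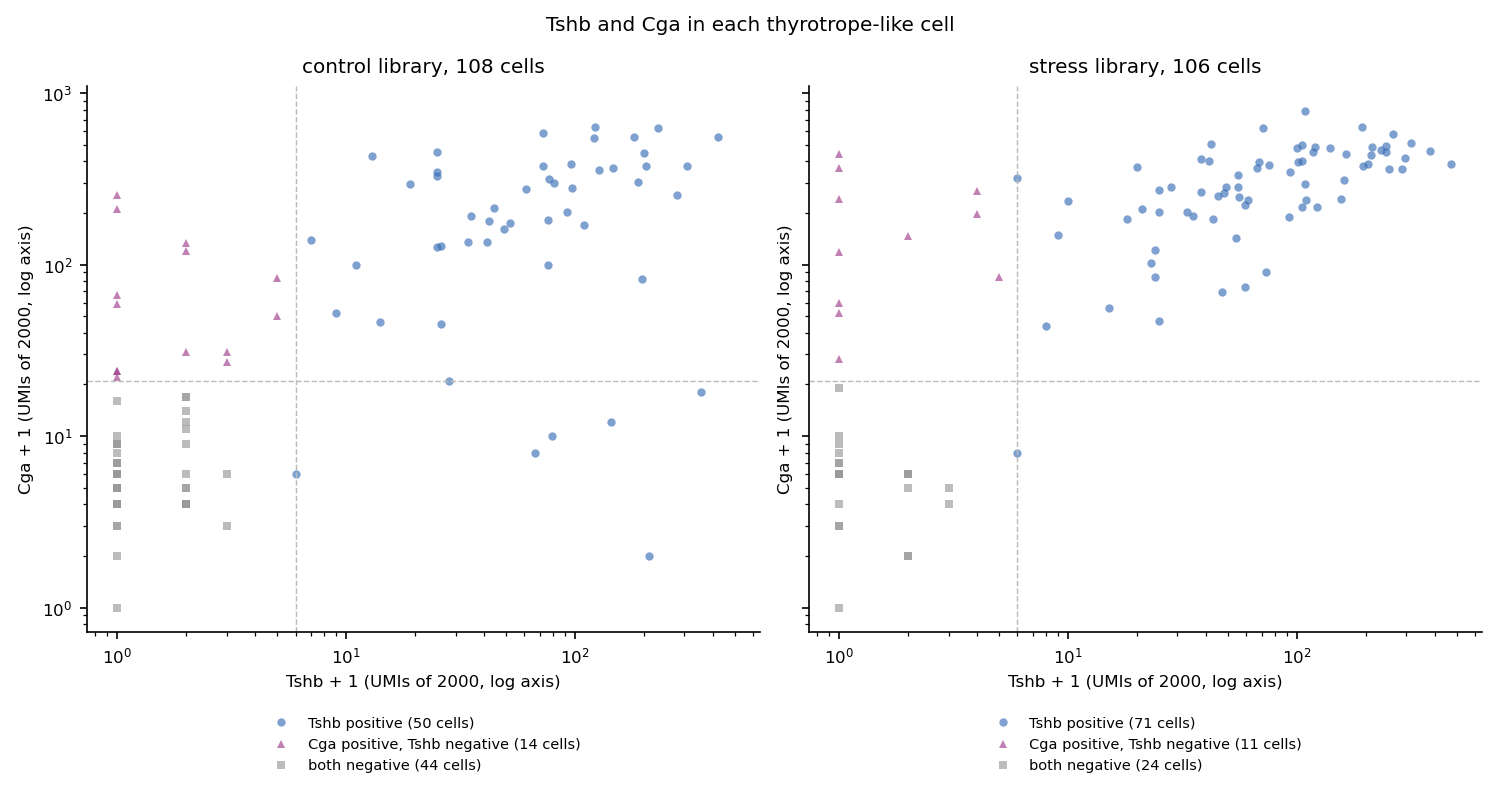
Tshb and Cga in each thyrotrope-like cell after thinning to 2000 UMIs, with 1 added and both axes logarithmic; dashed lines mark 5 Tshb and 20 Cga UMIs. The Tshb-positive cells are 50 in control and 71 in stress, cells with neither are 44 and 24, and 6 control cells lie to the lower right with Tshb and little Cga.

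Tshb-positive cells outside the class were 5 in control and 43 in stress. Of the 43, 33 were somatotrope-like, the median was 3319 UMIs, and the median Tshb was 17 UMIs of 2000, against 67 in the Tshb-positive stress cells inside the class. Gh made up 507264 CPM in them, and Dio2 stood at 28.0, against 441 in Tshb-positive thyrotrope-like cells. Counted over Tshb-positive cells of any cluster, the Tshb log2 ratio was -0.17, the opposite sign to the class ratio. The direction for Tshb therefore depends on which cells are counted.

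The ratio of alpha to beta subunit UMIs was higher in the stress library in both classes. Cga UMIs per beta subunit UMI were 2.80 in control and 3.76 in stress gonadotrope-like cells and 2.29 and 2.85 in thyrotrope-like cells. The same ratio was 3.98 and 4.94 in the non-endocrine classes. The ratio counts 3′ ends captured in droplets and is read only between libraries and classes.

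The genes whose levels followed the members over the 22 pituitary clusters were chosen by the highest Pearson r of log2(CPM + 10), among genes with at least 200 UMIs. This is a description over clusters that share libraries and depth. For Lhb, Fshb and Gnrhr, Tgfbr3l ranked first, with r of 0.99, 0.99 and 0.97. Tgfbr3l encodes a membrane protein that acts as an inhibin B co-receptor in gonadotropes. It stood at 3814 in cluster 7 and 7161 in cluster 16 and had a median of 27.3 over the other clusters. Nr0b1 (the nuclear receptor DAX1), Ihh (Indian hedgehog) and Grem1 (a BMP antagonist) followed for each of these members, then Spock1 for Lhb, Speer4e for Fshb and Unc13c for Gnrhr. For Tshb and Trhr the nearest genes were Vdr (the vitamin D receptor, r of 0.83 and 0.90), Prss28, Shox2, Pvalb and Dio2. For Cga they were Grem1 (r of 0.91), Kcnk3, March11, Chga and Apoc3, each of which stood above its median over the other clusters in clusters 7 and 16 and in the thyrotrope-like cluster. Lhb and Fshb had an r of 0.99 with each other, Tshb and Trhr of 0.96, Lhb and Tshb of -0.06, and Cga of 0.87 with Lhb and 0.43 with Tshb.

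The gonadotrope pathway list held 50 genes of gonadotrope identity and signalling downstream of Gnrhr. Of these, 39 had at least 50 UMIs in gonadotrope-like cells, 21 higher and 18 lower in stress. Over all 7684 genes, 3871 were higher and 3813 lower. The median log2 ratio was 0.03, against 0.00 over all genes. The 5 that were 2-fold or more higher were all immediate-early or stress-response genes, against 0.442% of all genes higher by that size. They were Atf3 (log2 2.54, 1.60 to 3.75), Jun (1.99, 1.74 to 2.25), Dusp1 (1.64, 1.36 to 1.93), Egr1 (1.11, 0.90 to 1.32) and Fos (1.07, 0.96 to 1.18). Egr1, a transcription factor induced by gonadotropin-releasing hormone, went from 113 to 243 CPM. The same 5 genes were higher in all other pituitary cells too, with log2 ratios of 0.70 for Atf3, 1.29 for Jun, 0.84 for Dusp1, 0.97 for Egr1 and 1.42 for Fos. A somatotrope-like cluster led by Fos and Junb held 10 control and 80 stress cells, so the difference was not limited to gonadotrope-like cells.

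Among the identity factors, Nr5a1 had 306 UMIs in control and 166 in stress, or 117 and 77.0 CPM, a log2 ratio of -0.60 (-0.89 to -0.33). In other pituitary cells its log2 ratio was -0.15. In cells positive for both Lhb and Fshb, Nr5a1 had a log2 ratio of -0.51 (-0.81 to -0.22). Gata2, a transcription factor of gonadotropes and thyrotropes, had a log2 ratio of -0.47 (-0.69 to -0.25), while Pitx1, a factor of the early pituitary, had one of 0.09 (-0.03 to 0.22). Tgfbr3l had one of -0.20 (-0.24 to -0.16), close to its -0.25 in other cells. Lhb and Nr5a1 were thus both lower in the stress library, and Egr1 was higher.

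**Figure D5:**
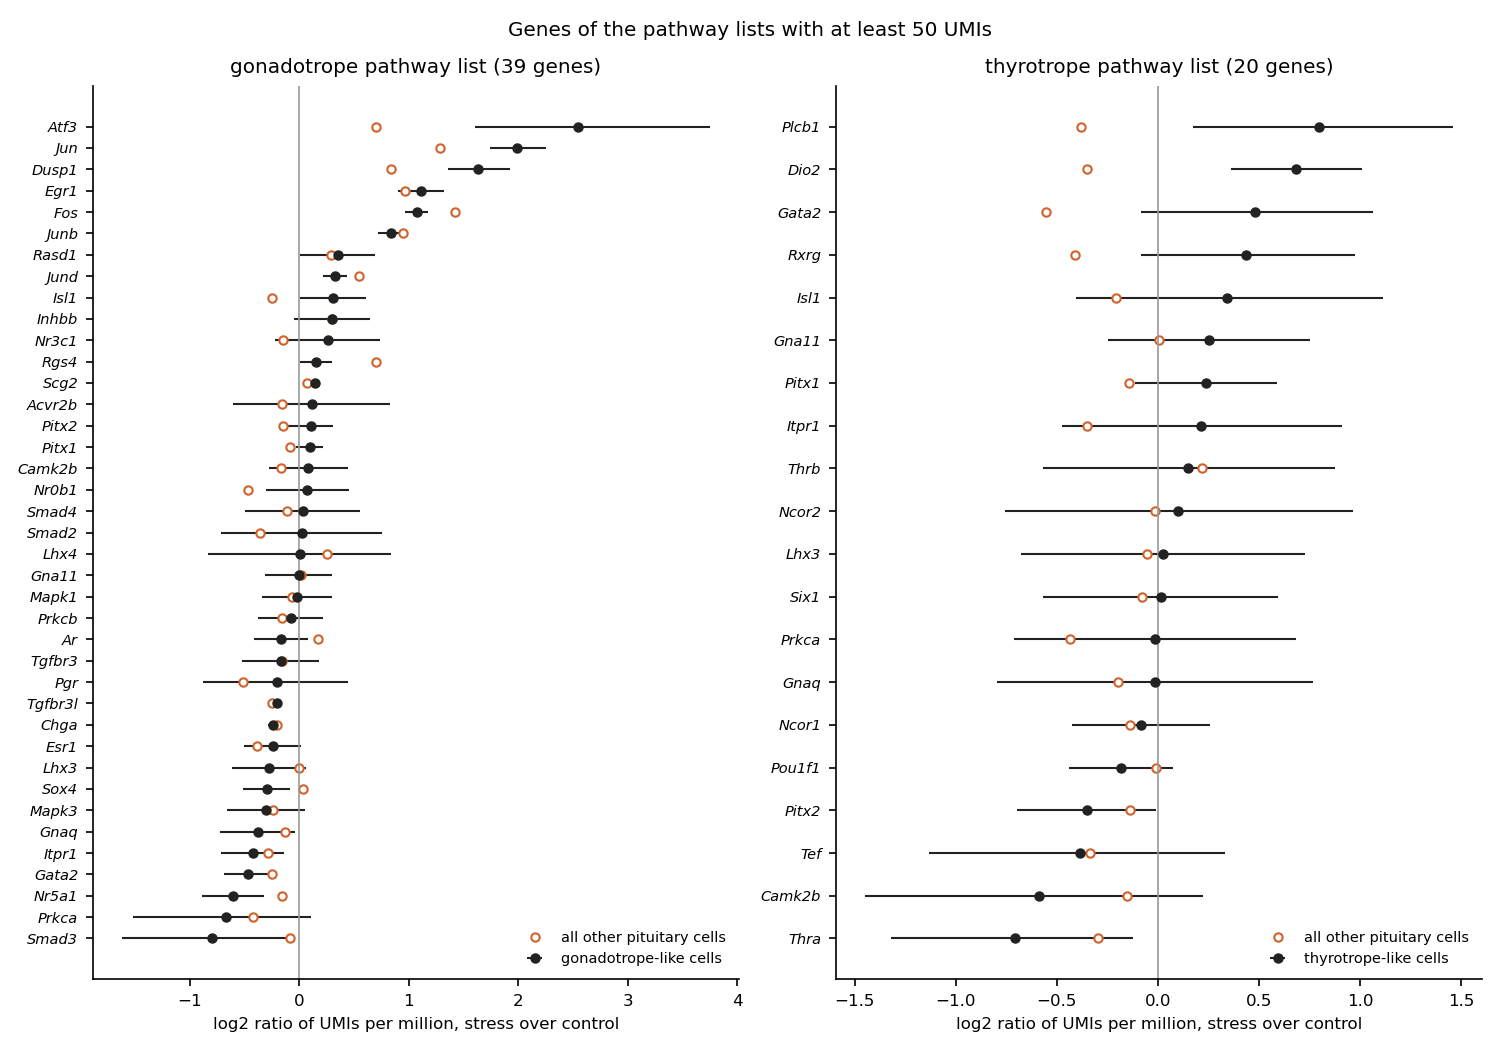
Log2 ratio of stress over control for the measured genes of the gonadotrope list (39 genes) and the thyrotrope list (20 genes), with 95% intervals of counting error in the class as filled points; open circles are all other pituitary cells. Atf3, Jun, Dusp1, Egr1 and Fos lie highest in gonadotrope-like cells and are above 0 in other cells too, and Dio2 and Plcb1 are above 0 in thyrotrope-like cells and below it in other cells.

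Of the 39 genes of the thyrotrope pathway list, 20 were measured in thyrotrope-like cells, 12 higher and 8 lower. Over all 3432 genes, 1516 were higher and 1916 lower. The median log2 ratio was 0.06, against -0.04 over all genes. None was 2-fold or more higher or lower, as were 1.63% of all genes, so a list of this length would seldom hold one. The 5 furthest from 0 were Plcb1 (0.80, 0.17 to 1.46), a phospholipase downstream of Trhr, Thra (-0.71, -1.32 to -0.12), a thyroid hormone receptor, Dio2 (0.68, 0.36 to 1.01), Camk2b (-0.59, -1.45 to 0.22) and Gata2 (0.48, -0.08 to 1.06). Pou1f1, the factor shared by thyrotropes, somatotropes and lactotropes, had a log2 ratio of -0.18 (-0.44 to 0.07), and Pitx1 one of 0.24 (-0.11 to 0.59). These ratios carry the same difference in the number of Tshb-positive cells as those of Tshb and Cga. In other pituitary cells Dio2 had a log2 ratio of -0.35.

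The glycoprotein hormone synthesis list held 28 genes of glycosylation, folding and hormone processing, 27 of them in the gene tables. In gonadotrope-like cells 23 were measured, 7 higher and 16 lower, against 3871 higher and 3813 lower over all genes. The median log2 ratio was -0.11, against 0.00 over all genes. None passed 2-fold, as did only 0.755% of all genes. The largest were St6gal1 (-0.45, -0.97 to 0.04) and Mgat2 (-0.44, -0.96 to 0.06), which act on sugar chains, then Ddost (0.29, 0.09 to 0.48) and Rpn2 (0.27, 0.05 to 0.50), subunits of the oligosaccharyltransferase complex, and Pcsk2 (-0.24, -0.52 to 0.03). In thyrotrope-like cells 19 were measured, 11 higher and 8 lower, against 1516 higher and 1916 lower over all genes. The median was 0.03, against -0.04 over all genes. The largest were Pcsk2 (0.83, 0.12 to 1.59), a prohormone convertase, Stt3a (-0.53, -1.03 to -0.04), Hspa5 (-0.52, -0.70 to -0.35), the main chaperone of the endoplasmic reticulum, Pdia4 (-0.44, -1.03 to 0.13) and Chga (-0.29, -0.40 to -0.19).

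The hypothalamic partners of these genes and the receptors of their hormones were looked up in all 6 libraries. Trh, the peptide that acts on Trhr, had 4559 control and 5018 stress UMIs in the PVN, and 1 and 4 in the pituitary. Gnrh1, the peptide that acts on Gnrhr, had 1204 UMIs in the PVN control library, of which 1171 lay in 1 cell, and 20 in the stress library. Npvf, a peptide that acts on gonadotropin release, had 1888 and 652 PVN UMIs, of which 1292 and 605 lay in 1 cell each. Most Gnrh1 and Npvf UMIs of those libraries thus lay in single cells, apart from the 20 Gnrh1 UMIs of stress. Lhcgr and Fshr, the gonadal receptors, had at most 5 UMIs in any library, and Kiss1 at most 1. Tshr, the receptor of thyrotropin, had 86 control and 64 stress UMIs in the PVN, and 8 and 12 in the pituitary.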

How the data were processed

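Droplet single-cell RNA sequencing (10x Genomics, v2 chemistry) gave 6 libraries, 1 per tissue and condition, each from 5 pooled mice, per the labels. The deposited files hold raw UMI counts for every gene in every barcode. Cell Ranger 2.1.1, Scanpy (without a stated role) and mm10 are named, per the submitters' processing notes. Strand use and cell calling settings were not given in these sources.

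In the pituitary, barcodes under 200 genes (0 control, 1 stress) or over 25% mitochondrial UMIs (45 and 15) were dropped. Each cell was scored against simulated doublets (2 per cell), and the top-scoring cells, 0.8% per 1000 cells, were removed. These were 213 and 207 cells, a number that the rate fixed, whatever the scores. Both libraries were clustered together (2000 variable genes, 20 dispersion bins, 30 principal components, 15 neighbours, Leiden resolution 1, 5 iterations, leidenalg 0.10.2, Python 3.11.15). The variable genes did not include the 6 genes, nor immediate-early, heat-shock, glucocorticoid-responsive, mitochondrial, ribosomal, haemoglobin or sex-chromosome genes. All of these stayed in the UMI totals used for scaling. To be called X-like, a cluster needed 3 markers, none among the 6 genes, each detected in 10% of its cells and at 2 times the lower quartile over clusters, and the best scoring class gave the name. The 1 cluster whose top 10 genes favoured the markers of another class, with 1045 control and 701 stress cells, had no name. Rebuilt classes can differ from the study's own.

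UMIs were summed per class and library and scaled to the class total (CPM), with exact Poisson intervals. Ratios are log2 of stress over control after adding 0.5 UMI to both sums, with exact binomial intervals. Shares have exact Clopper-Pearson intervals, and a count of 0 allows up to 3 counts. Intervals cover counting error only and were checked on simulated Poisson counts, which hold no spread between cells. Sequences came from RefSeq (GRCm38.p6), which matched 5 of the 6 genes, and gene positions from GENCODE vM21. The genes named were the 6 members in every class, the 5 most similar genes per member, the 5 largest ratios of each list among genes with at least 50 UMIs, and Nr5a1, Foxl2, Pitx1, Gata2, Egr1, Pou1f1 and Dio2. Other genes named were chosen after their values were seen. The members and lists were chosen with earlier results of these data known. Alternatives covered the clustering, doublets, cell filter, depth, scaling and class definition.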

Additional observations from a re-analysis of the deposited data

Results flagged for a closer look

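Cga had a log2 ratio of stress over control of -0.039 in gonadotrope-like cells and of 1.02 in thyrotrope-like cells. Opposite signs in the 2 classes drew attention to it, the difference between them was not tested, and the first value changed sign with the cells counted.

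Some of these genes also had UMIs in the PVN and adrenal libraries, which enter no comparison above, beyond the level that a count of 0 allows. Lhb stood at 4.55 CPM in the control and 4.07 in the stress PVN library (141 and 121 UMIs, at most 4 in a cell), where Fshb and Cga had no UMI. Trhr stood at 5.97 and 6.25 CPM in the PVN. Gnrhr had 26 UMIs in each adrenal library, or 0.915 CPM in control and 0.818 in stress, while the other members had none there.

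Gpha2, which encodes the alpha subunit of a further glycoprotein hormone, stood at 75.8 CPM in the control and 119 in the stress adrenal library. It stood at 5.29 in the control and 5.15 in the stress pituitary library (264 and 274 UMIs), and at 0.355 in the control PVN library. Gphb5, the gene of its beta subunit partner, had no UMI in any library.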

How the results depend on the processing

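No paired analysis was possible because each condition was 1 library. The choices without cluster 16, of cells with both Lhb and Fshb, of Tshb-positive cells of the class and of Leiden resolution 2 were made after seeing the data. The Lhb ratio was below 0 in 11 of 11 alternatives, in 1 of them by less than counting error (-0.0017, -0.015 to 0.011, with other cells subtracted). Fshb kept its sign in 11 of 11, Gnrhr in 10 of 11, Cga in 7 of 11 in gonadotrope-like cells and 9 of 9 in thyrotrope-like cells, Tshb in 8 of 9 and Trhr in 3 of 9. Leiden resolution 2 gave the same 234 and 199 gonadotrope-like cells with unchanged ratios, and libraries clustered alone gave 235 and 198. Both settings therefore nearly repeat the main result for gonadotrope-like cells. The Lhb log2 ratio was -0.53 in cells with both beta subunits, -0.49 in hormone-positive cells of any cluster, -0.57 with the members among the clustering genes, -0.54 with no cell filter, -0.65 thinned, -0.57 with totals without Gh, Prl and Pomc, and -0.51 without cluster 16. In the first 2 of these settings Fshb was 0.25 and 0.30, and otherwise 0.26 (no filter), 0.25 (subtracted), 0.13 (thinned) and 0.34 (without cluster 16). Cga in gonadotrope-like cells turned to 0.019 and 0.058 in the same 2 settings, and to 0.017 (no filter) and 0.078 (without cluster 16), and was -0.016 with doublets kept, -0.046 with libraries clustered alone, -0.027 with members in the clustering, -0.45 subtracted, -0.11 thinned and -0.019 without Gh, Prl and Pomc. Gnrhr turned to 0.28 when other cells were subtracted. Tshb was 0.31 at resolution 2, 0.17 in Tshb-positive cells, 0.35 with doublets kept, 0.17 with members in the clustering, 0.42 with no filter, 0.57 subtracted, 0.60 thinned and 0.62 without Gh, Prl and Pomc, and turned to -0.17 in hormone-positive cells of any cluster. Cga in thyrotrope-like cells was 0.63, 0.44, 0.62, 0.50, 0.72, 1.36, 0.86 and 0.92 in the same order and 0.10 in hormone-positive cells. The cells subtracted from each class included the other class, which also carries Cga. Their Cga log2 ratio was 0.41 for gonadotrope-like and -0.34 for thyrotrope-like cells, against 0.017 in cells outside both classes. The subtracted Cga values therefore do not set the class against free RNA alone. Trhr was -0.69 (-1.28 to -0.10) in hormone-positive cells and 0.78 thinned. Gonadotrope-like cells were 5.46% of control cells with no filter. Thyrotrope-like cells were 1.36% of control cells at resolution 2, 1.45% with doublets kept, 1.74% with members in the clustering and 1.54% with no filter, and 1.74% and 1.65% of stress cells at resolution 2 and with no filter. Clustered alone, the control library had 0 thyrotrope-like cells, since 66 of the 108 fell in lactotrope-like and 39 in somatotrope-like clusters, so that alternative gave no thyrotrope ratio. The control share with both beta subunits was 65.6% at 10 UMIs, 26.4% at 2 and 85.5% with doublets kept, and the stress share 30.6% at 2 UMIs. The setting with doublets kept also made the classes and thresholds anew. Apart from settings that changed which cells were counted, the cause was not tested. With 48 and 54 Trhr UMIs, depth limits the Trhr ratio.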
